A study of Homo sapiens with 6 samples.

Results

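The m6A writer complex was followed at the RNA level through 9 genes, *METTL3*, *METTL14*, *METTL16*, *WTAP*, *VIRMA*, *ZC3H13*, *RBM15*, *RBM15B* and *CBLL1*. The genes were chosen by name, with earlier results of these data known, and each matched 1 of the 60480 gene identifiers in the deposited count table. All 9 passed the filter on low counts. The libraries are poly(A) RNA of OE-19, an established cell line of adenocarcinoma of the esophagogastric junction (AEG). Of these, 3 are of control cells, titled shControl and labelled Puro in the counts. The other 3 are of cells with knockdown of the m6A reader IGF2BP3 (IGF2BP3 KD, shIGF2BP3). What the control cells carry is not given beyond these labels. The line is grown in medium with serum, penicillin and streptomycin, and no time after knockdown is given in the sources used here. Whether the 3 IGF2BP3 KD libraries carry the same hairpin, and whether libraries of a group come from separate cultures, is not given in the sources used here either. The p-values therefore measure the spread between these libraries, which may be technical.

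N6-methyladenosine (m6A) is a methyl mark on adenosines inside mRNA, laid down mostly near stop codons and in 3′ UTRs. METTL3 transfers the methyl group from S-adenosylmethionine, METTL14 holds the RNA beside it without catalysis of its own, and WTAP brings the pair to nuclear speckles. VIRMA, ZC3H13, the E3 ligase CBLL1 (HAKAI) and the RNA-binding proteins RBM15 and RBM15B form the regulatory part that places the pair on transcripts. METTL16 works apart from this complex and methylates U6 snRNA and hairpins of the *MAT2A* transcript, which encodes the enzyme that makes S-adenosylmethionine. IGF2BP3 binds mRNAs that carry the mark, so the comparison asks whether loss of a reader went along with a change in the RNA of the writers.

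Levels are given as CPM, the counts of a gene per 1000000 counts of its library, with library totals scaled by edgeR's TMM method. *IGF2BP3* itself, the target of the knockdown, stood at 108, 106 and 112 CPM in control libraries 1, 2 and 3 and at 14.4, 12.8 and 12.6 CPM in IGF2BP3 KD libraries 1, 2 and 3, a fitted level of 12.2% of control. Total counts per library lay between 53424071 and 69989087. Of 6 epithelial markers, all were detected, with a summed level of 18159 to 19144 CPM in control cells and 19831 to 20289 CPM in IGF2BP3 KD cells, most of it *ERBB2*. Of these 6, *EPCAM* and *ERBB2* were called higher, *KRT8* and *KRT18* lower, and *CDH1* and *KRT19* were not called. The fibroblast markers *COL1A2* and *LUM* and the T cell marker *CD3E* had 0 counts in all libraries. The 6 fibroblast markers together reached 21.2 to 24.5 CPM in control and 29.9 to 34.4 CPM in IGF2BP3 KD cells, most of it *COL1A1*. The 6 leukocyte markers summed to 2506 to 2734 CPM in control and 2543 to 2616 CPM in IGF2BP3 KD cells, most of it *LYZ*, which secretory epithelium also makes. Of the other lists *COL1A1* and *CD68* were called higher, and the part of these marker levels in the results was not tested.

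In IGF2BP3 KD cells 5 of the 9 writer genes were lower and 0 were higher. *RBM15* fell to 71.2% of its control level, *METTL16* to 75.3%, *VIRMA* to 79.9%, *METTL3* to 84.3% and *ZC3H13* to 85.5%. *WTAP*, *METTL14*, *RBM15B* and *CBLL1* were not called, with levels between 94.1% and 106% of control. A gene was called at an adjusted p under 0.05 in edgeR's quasi-likelihood test, adjusted by Benjamini-Hochberg over 19778 tested genes. In that test the share of lower genes over the whole table was 10.6% and that of higher genes 9.87%. Coding genes within the range of levels of the writer genes numbered 4702, of which 22.9% were called lower and 17.6% higher. The median log2 fold change was -0.23 over the 9 writer genes and 0.01 over all tested genes. The same 5 genes were lower and none was higher at an unadjusted p under 0.05, and DESeq2 also called 5 lower and 0 higher. In bulk RNA, fewer cells that express a gene and less of its RNA per cell cannot be told apart.

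**Figure D1:**
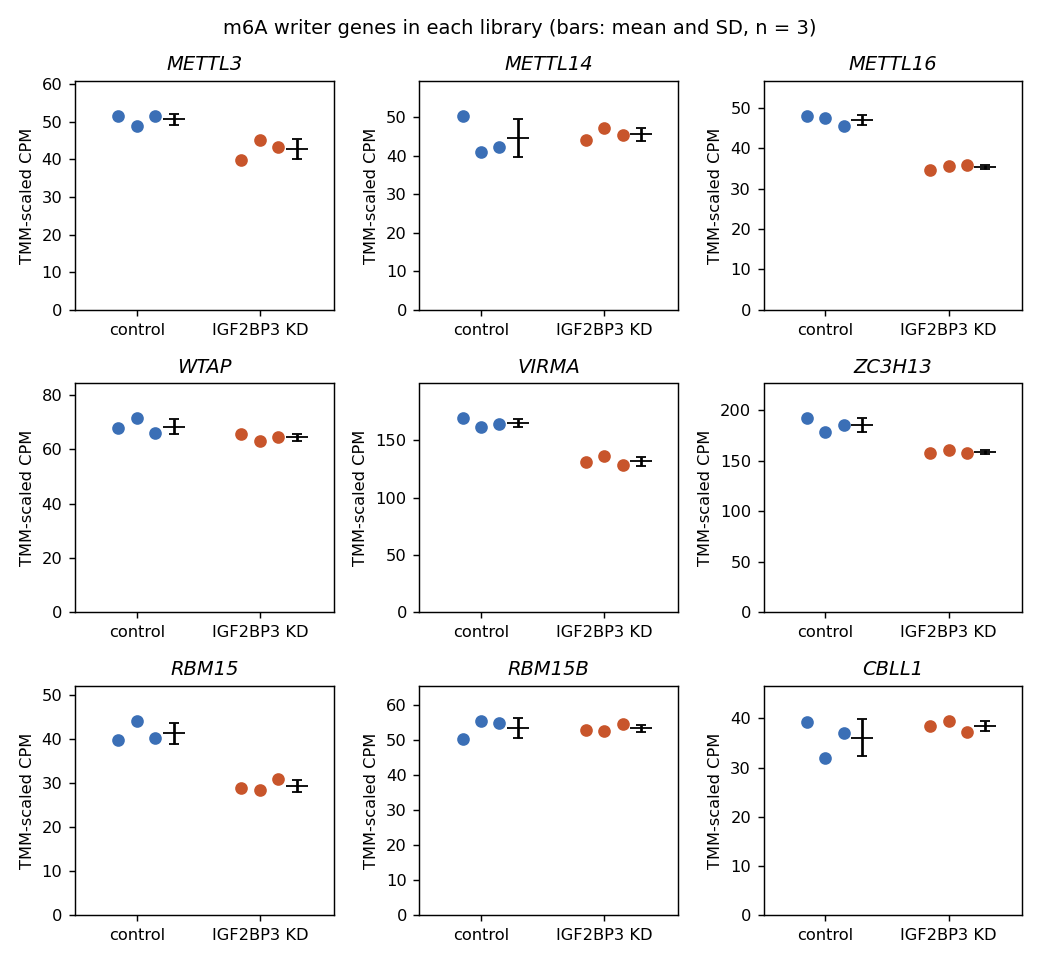
Level of each writer gene in TMM-scaled CPM (vertical axis from 0) in the 3 control libraries (blue) and the 3 IGF2BP3 KD libraries (orange), with the mean and SD of each group in black. The groups lie fully apart in *METTL3*, *METTL16*, *WTAP*, *VIRMA*, *ZC3H13* and *RBM15*, and overlap in *METTL14*, *RBM15B* and *CBLL1*.

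The plot of levels by library shows that the groups did not overlap in 6 of the 9 genes, in each case with IGF2BP3 KD lower. Over the whole table, 17.8% of genes were lower and 18% were higher in this way. The summed level of the 9 genes was 708, 681 and 687 CPM in the control libraries and 592, 608 and 598 CPM in the IGF2BP3 KD libraries, of which *ZC3H13* and *VIRMA* made up the largest shares.

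*METTL3* (ENSG00000165819), the catalytic subunit, is a gene of chromosome 14 (hg38, 21498133 to 21511342, minus strand). Its level was 51.6, 49.0 and 51.4 CPM in the control libraries and 39.8, 45.1 and 43.2 CPM in the IGF2BP3 KD libraries. Every control value lay above every IGF2BP3 KD value, and IGF2BP3 KD library 1 was the lowest. The mean went from 50.7 ± 1.45 to 42.7 ± 2.65 CPM (SD, n = 3), a log2 fold change of -0.25 (standard error 0.06, edgeR adjusted p = 0.011). Without IGF2BP3 KD library 1 the log2 fold change was -0.20 and the call was lost at an edgeR adjusted p of 0.0502. *METTL3* shares 388 exonic bases, 6.62% of its own, with *TOX4* on the opposite strand, and *TOX4* was not called (log2 fold change -0.07).

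*METTL14* (ENSG00000145388, chromosome 4, 118685392 to 118715433) encodes the partner of METTL3 in the heterodimer and was not called. Its level was 50.4, 41.1 and 42.4 CPM in the control libraries and 44.1, 47.3 and 45.5 CPM in the IGF2BP3 KD libraries. Control library 1 was the highest and control library 2 the lowest of the 6, so the IGF2BP3 KD values lay inside the control range. The log2 fold change was 0.03, with a 95% interval from -0.13 to 0.20, or 91.2% to 115% of the control level.

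Since the change of one gene and the lack of a call in the other do not show a difference, the counts of *METTL14* were divided by those of *METTL3* within each library, which needs no scaling between libraries. This ratio was 0.977, 0.840 and 0.824 in the control libraries and 1.11, 1.05 and 1.05 in the IGF2BP3 KD libraries. All IGF2BP3 KD ratios lay above all control ratios, and their mean was 121% of the control mean. In all 7 ratios were computed, chosen after the levels had been seen: those of *METTL14*, *WTAP*, *VIRMA*, *ZC3H13*, *CBLL1* and *METTL16* to *METTL3*, and that of *RBM15* to *RBM15B*. The ratio of *CBLL1* to *METTL3* went from 0.711 ± 0.0556 to 0.902 ± 0.0554 (SD, n = 3) and that of *METTL16* to *METTL3* went from 0.927 ± 0.0420 to 0.829 ± 0.0399, both without overlap. The ratios of *WTAP*, *VIRMA* and *ZC3H13* to *METTL3* overlapped between groups, at 112%, 94.9% and 102% of the control mean. A two-sided exact permutation test over the 6 libraries gave p = 0.1 for each ratio without overlap, the smallest value that 3 against 3 libraries can give, and 0.175 after Benjamini-Hochberg adjustment over the 7 ratios. No ratio could therefore have passed the threshold, and the values are a description. Of all other tested genes, 46.7% had a ratio to *METTL3* that did not overlap between groups.

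**Figure D2:**
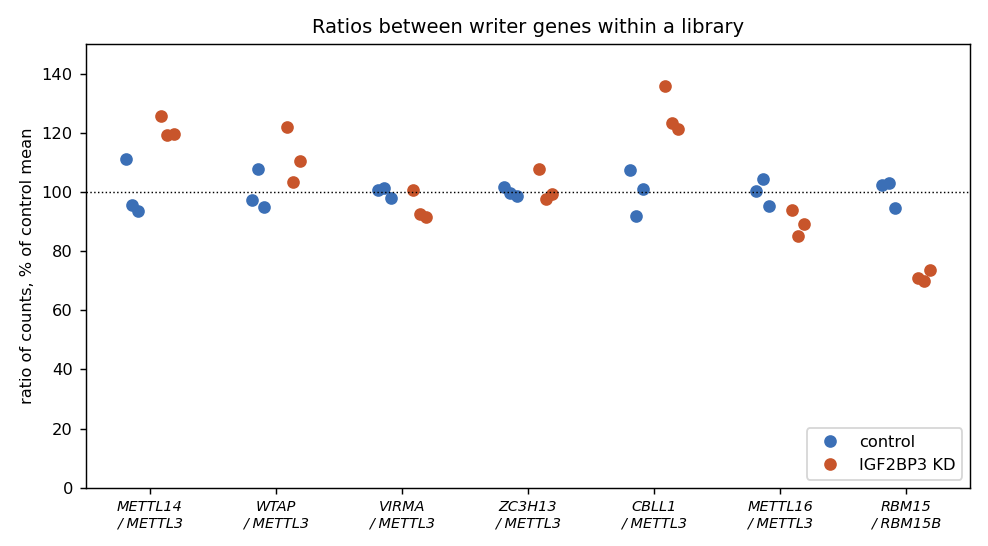
Ratio of the counts of 2 writer genes within a library, as a percentage of the mean ratio of the control libraries (vertical axis from 0, dotted line at 100). Blue points are the 3 control and orange points the 3 IGF2BP3 KD libraries. *METTL14* and *CBLL1* per *METTL3* lay higher, and *RBM15* per *RBM15B* lower, in every IGF2BP3 KD library than in any control library.

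*METTL16* (ENSG00000127804), the enzyme that acts outside the complex, is a gene of chromosome 17 (2405562 to 2511891, minus strand). Its level was 47.9, 47.4 and 45.5 CPM in the control libraries and 34.6, 35.6 and 35.7 CPM in the IGF2BP3 KD libraries. The groups lay far apart compared with the spread within either of them. The log2 fold change was -0.41 (standard error 0.05, edgeR adjusted p = 1.9e-04), and it stayed between -0.44 and -0.40 with each library left out in turn. No exon of *METTL16* overlaps an exon of another gene in GENCODE v44.

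*METTL16* was the only writer gene whose 3′ UTR holds the 7-base word GATTACT, and none of the 9 holds ACACATC. Both words had been picked from the changes in these same libraries, so the medians over all genes are no independent evidence. The words were searched on the sense strand of canonical transcripts. GATTACT is in the 3′ UTR of 7.70% and ACACATC in that of 9.53% of the 13918 tested coding genes with a 3′ UTR. Genes with GATTACT had a median log2 fold change of -0.13, against 0.01 for those without it, and genes with ACACATC one of 0.11, against -0.01 for those without it. The site in *METTL16* begins 3497 bases into a 3′ UTR of 3921 bases, at chr17:2416466-2416472 of hg38 on the minus strand (transcript ENST00000263092 of GENCODE v44). It is shown 5′ to 3′ with the word in capitals, as the only such site in the 3′ UTRs of the 9 genes:
METTL16: agcttcgtgtaGATTACTttagtatatat
The part of this word in the lower level of *METTL16* was not tested. The other 4 lower writer genes do not hold it.

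The known mRNA substrate of METTL16 is *MAT2A* (ENSG00000168906, chromosome 2, 85539168 to 85545281), whose 3′ UTR carries hairpins with the methylated word TACAGAGAA or a close variant. The 3′ UTR of transcript ENST00000306434 held TACAGAGAA at 5 places and TACAGAAAA at 1 place, on the plus strand of hg38. They are printed 5′ to 3′ with the word in capitals, in the order of the transcript, to show the elements that METTL16 is known to bind:
chr2:85543812-85543820: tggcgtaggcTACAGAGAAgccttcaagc
chr2:85544599-85544607: tgtgatgtcaTACAGAGAAgtcacagggc
chr2:85544784-85544792: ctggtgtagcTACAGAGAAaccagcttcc
chr2:85544899-85544907: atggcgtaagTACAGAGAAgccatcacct
chr2:85545014-85545022: caaggtgtccTACAGAAAAaccttgggtt
chr2:85545122-85545130: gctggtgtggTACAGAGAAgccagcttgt
The first of them begins 39 bases after the stop codon. Of the 13918 tested coding genes with a 3′ UTR, 1.80% hold TACAGAGAA and 3.11% hold TACAGAAAA on the sense strand. *MAT2A* stood at 410, 400 and 400 CPM in the control libraries and 432, 430 and 422 CPM in the IGF2BP3 KD libraries. Every IGF2BP3 KD value lay slightly above the control values (log2 fold change 0.09, standard error 0.02, edgeR adjusted p = 0.030). Leaving out a library ended this call in 5 of 6 fits, all but the one without control library 1, with log2 fold changes between 0.08 and 0.10. *MAT2A* shares 562 exonic bases with *GGCX* on the opposite strand, and gene counts do not separate spliced *MAT2A* from the form with a retained intron.

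*VIRMA* (ENSG00000164944, chromosome 8, 94487689 to 94553529), the large scaffold of the regulatory part, had the smallest p of the 9 genes. It stood at 169, 162 and 164 CPM in the control libraries and at 131, 136 and 129 CPM in the IGF2BP3 KD libraries. The distance between the groups was several times the SD of either group. Its log2 fold change was -0.32 (standard error 0.03, edgeR adjusted p = 6.6e-05), between -0.35 and -0.31 with each library left out. No exon of another gene overlaps an exon of *VIRMA*.

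*ZC3H13* (ENSG00000123200, chromosome 13, 45954465 to 46052759), which anchors the complex in the nucleus, had 192, 179 and 186 CPM in the control libraries and 157, 161 and 157 CPM in the IGF2BP3 KD libraries. The control values spread more widely, but none reached down to the IGF2BP3 KD values. The log2 fold change was -0.23 (standard error 0.03, edgeR adjusted p = 7.2e-04), and every fit with a library left out kept the call. *ZC3H13* shares 263 exonic bases with *CPB2-AS1* on the opposite strand.

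*WTAP* (ENSG00000146457, chromosome 6, 159725585 to 159756319), the adaptor between the heterodimer and the regulatory part, had 67.6, 71.3 and 66.0 CPM in the control libraries and 65.5, 62.9 and 64.4 CPM in the IGF2BP3 KD libraries. The groups were separated by a narrow gap. The log2 fold change was -0.09 with a 95% interval from -0.19 to 0.01, and the edgeR adjusted p was 0.233. *WTAP* shares 437 exonic bases with *SOD2* on the opposite strand.

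*CBLL1* (ENSG00000105879, chromosome 7, 107743073 to 107761667), the E3 ligase of the complex, had 39.3, 32.0 and 37.0 CPM in the control libraries and 38.4, 39.5 and 37.3 CPM in the IGF2BP3 KD libraries. Control library 2 was the lowest, as it was for *METTL14*, and control library 1 lay among the IGF2BP3 KD values. The log2 fold change was 0.09 with a 95% interval from -0.07 to 0.25 (edgeR adjusted p = 0.475). *CBLL1* shares 442 exonic bases, 8.1% of its own, with *CBLL1-AS1* on the opposite strand.

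*RBM15* (ENSG00000162775, chromosome 1, 110338506 to 110346681) had the largest change of the 9 genes. RBM15 and its paralog RBM15B bind U-rich stretches of RNA and bring the complex there. *RBM15* had 39.7, 44.2 and 40.2 CPM in the control libraries and 29.0, 28.4 and 31.0 CPM in the IGF2BP3 KD libraries. The lowest control value was well above the highest IGF2BP3 KD value. Its log2 fold change was -0.49 (standard error 0.06, edgeR adjusted p = 2.5e-04), between -0.53 and -0.44 with each library left out. *RBM15* shares 175 exonic bases with *RBM15-AS1* on the opposite strand.

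*RBM15B* (ENSG00000259956, chromosome 3, 51391285 to 51397908) had 50.3, 55.5 and 55.0 CPM in the control libraries and 52.99, 52.72 and 54.55 CPM in the IGF2BP3 KD libraries. The IGF2BP3 KD values lay inside the control range, and the fitted level was 99.7% of control with a 95% interval from 92.0% to 108%. The counts of *RBM15* per count of *RBM15B* were 0.789, 0.795 and 0.731 in the control libraries and 0.546, 0.539 and 0.568 in the IGF2BP3 KD libraries. Its mean in IGF2BP3 KD cells was 71.4% of the control mean, without overlap (two-sided exact permutation p = 0.1, again the smallest value possible, so the test could not pass the threshold). A ratio to *RBM15B* without overlap was found for 31.1% of the other tested genes. *RBM15B* shares 1325 exonic bases, 20.0% of its own, with *DCAF1* on the opposite strand. The strand setting of the counting is not given in the sources used here, and *DCAF1* was not called (log2 fold change -0.08).

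**Figure D3:**
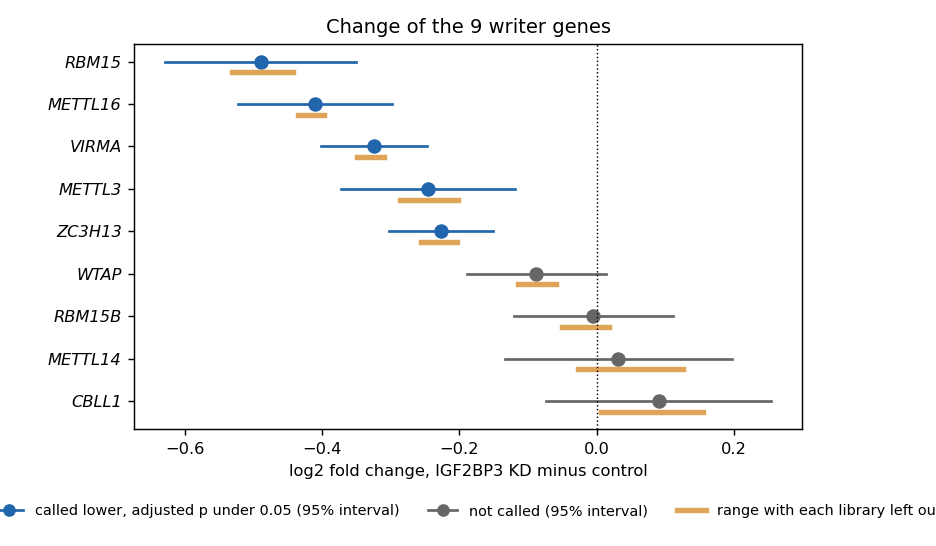
Log2 fold change of each writer gene, IGF2BP3 KD minus control (horizontal axis), with its 95% interval as a line, in blue where the gene was called lower and in grey where it was not called. The bar under each point spans the values with each of the 6 libraries left out in turn, which stay below 0 for the 5 called genes and for *WTAP*.

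In the plot of log2 fold changes the 95% intervals of the 5 called genes end below 0. That of *RBM15* ran from -0.63 to -0.35, that of *ZC3H13* from -0.30 to -0.15 and that of *METTL3* from -0.37 to -0.12. The intervals of *RBM15* and *ZC3H13* do not overlap, while those of *METTL16*, *VIRMA* and *METTL3* overlap each other.

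Levels were then compared between genes per length, as RPKM, the CPM of a gene per 1000 of its bases, over all exonic bases annotated in GENCODE v44. In control cells *ZC3H13* was highest at 18.1 ± 0.642, followed by *VIRMA* at 15.3 ± 0.341, *WTAP* at 10.6 ± 0.422 and *RBM15* at 8.86 ± 0.524 RPKM (SD, n = 3). *METTL3* at 8.64 ± 0.248, *RBM15B* at 8.09 ± 0.429, *CBLL1* at 6.62 ± 0.691, *METTL14* at 6.53 ± 0.733 and *METTL16* at 5.25 ± 0.145 RPKM followed. The ranges of *RBM15* and *METTL3*, of *METTL3* and *RBM15B*, and of *CBLL1* and *METTL14* overlapped, so these neighbours did not differ beyond their spread. In IGF2BP3 KD cells *RBM15* moved from rank 4 to rank 8, at 6.31 ± 0.293 RPKM, where its range overlapped that of *METTL14*. *METTL16* was the lowest in both groups.

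The order depended on the length used. *METTL3* has 5861 annotated exonic bases but a canonical transcript of 1980 bases, and per length of the canonical transcript it ranked 2 in control cells, at 25.6 ± 0.734 RPKM. *RBM15* moved only from rank 5 to rank 6 on this scale. There *WTAP* was highest at 32.4 ± 1.29 RPKM and *METTL14* lowest at 6.72 ± 0.754 RPKM. On both scales *METTL3* lay above *METTL14* in every library, most narrowly per exonic bases in IGF2BP3 KD library 1, at 6.80 against 6.44 RPKM.

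**Figure D4:**
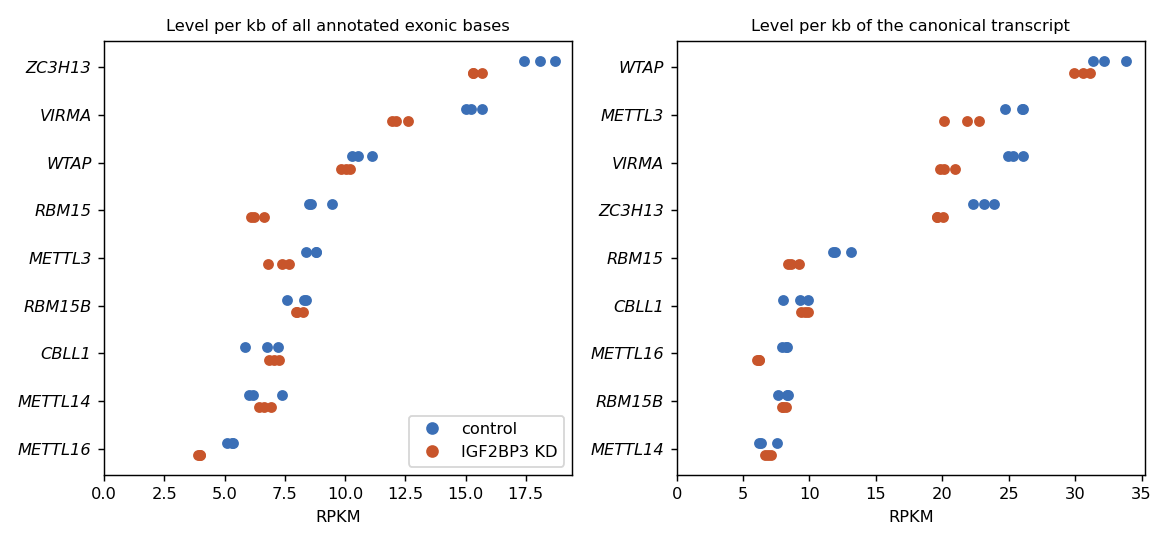
Level of each writer gene per length in RPKM (horizontal axis from 0) in the 3 control (blue) and 3 IGF2BP3 KD (orange) libraries, on the left over all annotated exonic bases and on the right over the canonical transcript. *ZC3H13* is highest on the left and *WTAP* on the right, and in both the control values of *RBM15*, *METTL16*, *VIRMA*, *METTL3* and *ZC3H13* lie to the right of their IGF2BP3 KD values.

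The 3′ UTRs of the 9 genes differ widely in length, from 120 bases in *METTL3* to 5128 in *METTL14*. The letters TGGAC were searched because they are the DNA form of the consensus that the study gives for IGF2BP3 binding. They occur in the 3′ UTR of 8 of the 9 genes, all but *METTL3*, and in 61.4% of the 13918 tested coding genes. *ZC3H13* and *RBM15B* hold it 4 times, *METTL14*, *METTL16*, *VIRMA* and *CBLL1* 3 times, and *WTAP* and *RBM15* once. Called and uncalled genes are found at each of these numbers, and *METTL3*, which holds none, was called. Over all tested coding genes the median log2 fold change was -0.00 with the letters and -0.00 without them. These counts were not adjusted for the length of the 3′ UTR. The part of IGF2BP3 binding in the calls was not tested.

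Related genes of the same chemistry were read from lists written with earlier results of these data known. Of 50 related genes 49 were tested, with 9 called lower, 6 called higher and a median of -0.04 on the log2 scale. These were 18.4% lower and 12.2% higher, against 10.6% and 9.87% of all tested genes and 14.3% and 13% of tested coding genes. For coding genes within the range of levels of the writer genes the shares were 22.9% and 17.6%. Among 5 other enzymes and partners that lay down m6A or the related mark m6Am, 2 were lower and 0 were higher, by edgeR and by DESeq2. At an unadjusted p under 0.05, 1 of these 5 was higher. *PCIF1*, which methylates the adenosine next to the mRNA cap, had 43.6 ± 2.21 CPM in control and 30.4 ± 1.14 CPM in IGF2BP3 KD cells (SD, n = 3; log2 fold change -0.52, standard error 0.06, edgeR adjusted p = 1.0e-04). *METTL4*, which methylates U2 snRNA and belongs to the same protein family as METTL3 and METTL14, had a mean of 15.98 ± 2.15 CPM in control and 11.3 ± 0.289 CPM in IGF2BP3 KD cells, and fell by 0.50 on the log2 scale (standard error 0.10, edgeR adjusted p = 0.0052). Both log2 fold changes were close to that of *RBM15*.

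The next lists are short, and over all tested genes 10.6% were called lower and 9.87% higher. Of 6 tested genes that supply S-adenosylmethionine or clear its product, *MAT2A* was the only one called. Of the 5 genes of the exon junction complex, which keeps the writers off mRNA near splice junctions, *CASC3* was lower at a log2 fold change of -0.24 (standard error 0.04, edgeR adjusted p = 0.0026) and the other 4 were not called. Of the 4 genes listed as recruiters of the writers or relatives of members, 0 were called by edgeR or by DESeq2 and 0 had an unadjusted p under 0.05, *SPEN*, the large relative of *RBM15*, among them (log2 fold change -0.07, 95% interval -0.15 to 0.02).

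Of the 2 erasers, 0 were called by edgeR or by DESeq2, and 0 had an unadjusted p under 0.05. *FTO* had a log2 fold change of 0.16 (95% interval -0.01 to 0.34) and *ALKBH5* one of -0.03 (95% interval -0.13 to 0.06). Of 12 reader genes other than *IGF2BP3*, edgeR called 4 lower and 3 higher. These are 33.3% and 25%, against 10.6% and 9.87% of all tested genes. Of coding genes within the range of levels of the writer genes, 22.9% were called lower and 17.6% higher. DESeq2 tested 11 of the 12 readers and called 5 lower and 3 higher. *HNRNPA2B1* was lower at -0.27 and *YTHDC1* at -0.17 (edgeR adjusted p = 0.013 for *YTHDC1*). *YTHDF2* at -0.21 and *YTHDF3* at -0.12 were called close to the threshold (edgeR adjusted p = 0.0406 and 0.0409). *IGF2BP2*, a paralog of the silenced gene, was higher at 0.54 (standard error 0.09, edgeR adjusted p = 0.0011) and *FMR1* at 0.38. The other paralog, *IGF2BP1*, was barely detected, at a mean of 0.26 CPM in control and 0.15 CPM in IGF2BP3 KD cells, and was not called. The reader *PRRC2A* was higher at 0.13. Whether writers and readers differed in their share of lower genes was not tested.

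**Figure D5:**
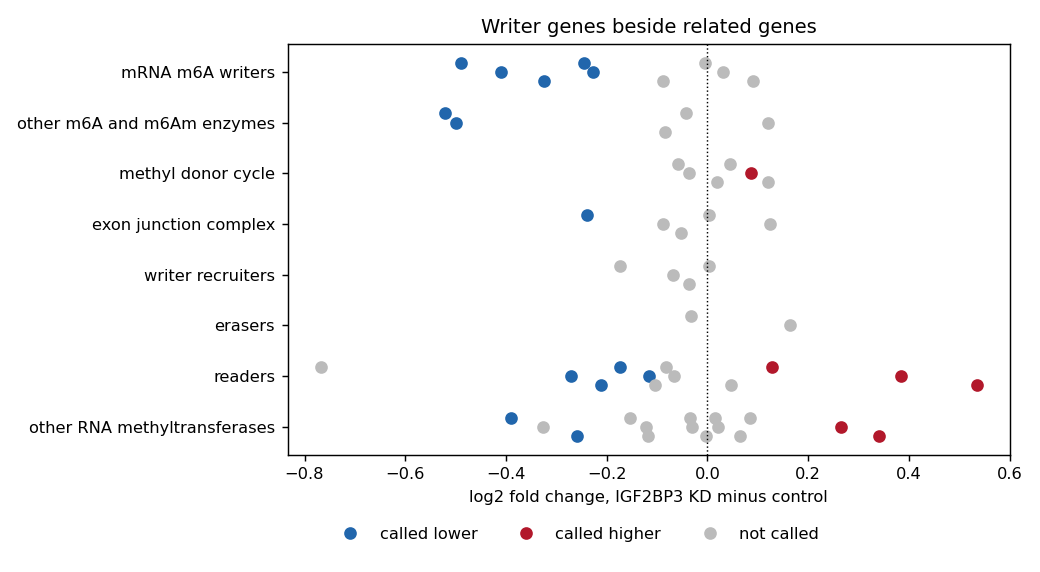
Log2 fold change, IGF2BP3 KD minus control (horizontal axis), of each tested gene of the writer list and of 7 related lists, 1 point a gene. Blue points were called lower, red points higher and grey points were not called, and the writer row holds 5 blue and no red points.

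The pattern of *METTL3* over the 6 libraries was set beside that of 14288 genes whose mean reached 1 CPM. The highest Pearson r of log2 CPM were 0.995 for *RTCA*, 0.993 for *FBN1* and 0.993 for *RPA2*. As 202 genes had an r over 0.95 with *METTL3*, and the 6 libraries share the 2 groups, these values are a description only.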

How the data were processed

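Poly(A) RNA-seq of OE-19 cells was analysed in 6 libraries, 3 control and 3 IGF2BP3 KD. The authors cleaned reads with fastp, aligned them to hg38 with HISAT2 at default settings and counted them with featureCounts. The deposited values are raw counts per gene, without normalization. Versions, annotation release and strand setting are not given in the sources used here, so counts of overlapping genes are uncertain.

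In the count table, 132 repeated entries of 44 identifiers were left out. The quasi-likelihood test of edgeR 4.0.16 (R 4.3.3; glmQLFit, glmQLFTest) was run with no block on TMM-scaled counts (factors 0.992 to 1.01) after filterByExpr (minimum count 10, minimum total 15). Its p-values were adjusted by Benjamini-Hochberg over the 19778 genes kept, with 0.05 as threshold. No library duplicates another, since a chi-square per degree of freedom was at least 9.86 between any pair. Lengths, positions and 3′ UTRs come from GENCODE v44 on hg38, using the canonical transcript. All gene symbols were found in the table.

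The members and lists were chosen with earlier results of these data known. Named genes are the 9 members, *IGF2BP3*, up to 4 called genes of each related list by smallest p, *MAT2A*, *SPEN*, and the 3 genes nearest to *METTL3*. *FTO*, *ALKBH5*, *TRMT61A*, *MAGOHB*, *YTHDF2*, *YTHDF3*, *YTHDC1*, *IGF2BP1*, single marker genes and genes that overlap a member were added after their values were seen. Alternatives were DESeq2 1.42.0, RLE scaling, a filter of 10 counts in each library or none, a replicate block, GC offsets (lowess span 0.3), both together, coding genes only, and each library left out. Lengths of canonical transcripts were added after seeing the data. Computations also used Python 3.11.15.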

Additional observations from a re-analysis of the deposited data

How the results depend on the processing

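The count of lower writer genes was 5 under each of 8 alternatives that kept all libraries and 4 to 5 with each library left out in turn, and the count of higher writer genes was 0 under all 14. Of the related genes, 7 to 10 were lower and 4 to 6 higher over the alternatives. In each fit that left out 1 library, 7 were lower. The calls of *YTHDF2*, *YTHDF3* and *YTHDC1* were not followed gene by gene over the alternatives. The 4 lower writer genes came without IGF2BP3 KD library 1, where *METTL3* had an edgeR adjusted p of 0.0502. *METTL16*, *VIRMA*, *ZC3H13* and *RBM15* kept their call under all 14 alternatives. Of the 392 values of 28 genes (those named by rule, with *FTO* and *ALKBH5*) under the alternatives, 387 kept their direction and 18 lost their call, 10 of them in *METTL8*, 6 in *MAT2A*, 1 in *METTL3* and 1 in *PRRC2A*. *RTCA* gained a call with DESeq2 (adjusted p = 0.048, against 0.070 with edgeR). The 5 that changed sign were of uncalled genes. With each library left out, the log2 fold change of *METTL14* lay between -0.027 and 0.13 and was below 0 without control library 2 and without control library 3. That of *RBM15B* lay between -0.051 and 0.018 and was above 0 without control library 2, control library 3 or IGF2BP3 KD library 2. The cause was not tested. Correlations of deviations from the group means were -0.03 to 0.01 between control and IGF2BP3 KD libraries of the same number. Between libraries of other numbers they were -0.02 to 0.02. No pairing by number was seen, though such correlations over all tested genes cannot exclude one. A replicate block left the writer genes lower at 5 and higher at 0, while all tested genes lower and higher went from 2088 and 1953 to 2026 and 1875. With the replicate block, *METTL8* was the only one of these 28 genes that lost its call. At this depth the members had at least 1563 counts in every library, and the number of libraries, 3 a group, limits the precision.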

Other observations

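Among 15 genes of other RNA methyltransferases and their partners, edgeR called 2 lower and 2 higher, 13.3% each way, against 10.6% and 9.87% over the whole table. *RNMT*, which methylates the guanosine cap of mRNA, rose from 141 ± 4.94 CPM to 178 ± 6.76 CPM (SD, n = 3) in IGF2BP3 KD cells, by 0.34 on the log2 scale (standard error 0.04, edgeR adjusted p = 1.0e-04). *TRMT6*, a subunit of the tRNA m1A enzyme, was lower at -0.39 and holds GATTACT in its 3′ UTR, while its catalytic partner *TRMT61A* was not called at -0.03. The only other related gene that holds this word, *MAGOHB* of the exon junction complex, was not called at 0.12. GATTACT was picked from the changes in these same libraries and is in 7.70% of the 13918 tested coding genes with a 3′ UTR. Its part in the level of *TRMT6* was not tested. *NSUN2*, which makes 5-methylcytosine in tRNA and mRNA, was lower at -0.26. *METTL8*, a mitochondrial tRNA methyltransferase, was higher at 0.27 (edgeR adjusted p = 0.045), and this call was lost in all 6 fits that each left out 1 library.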
